A study of Mus musculus with 75 samples.

Results

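Oncomodulin, encoded by Ocm, was present in some of the hair cells made from adult supporting cells (SCs) and absent or nearly absent in the others. Of the 75 cells of the study, 27 were induced hair cells, namely 11 OHC-like cells and 16 nascent HCs, and these 27 were split by their Ocm level. Counts were scaled to counts per 1000000 counts on genes in the cell (CPM), and a cell was taken as having Ocm at 1 CPM or more. This rule put 13 cells on the side with Ocm and 14 on the side without. The split was chosen on a measured transcript and not on a treatment, so the Ocm levels of the sets are a description, and every other gene was compared between them.

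Oncomodulin is a small calcium-binding protein of the parvalbumin family, with EF-hand loops that hold the ion. In the cochlea it is known as a protein of outer hair cells (OHCs), the motile sensory cells that amplify sound, and it appears in them as they mature. Prestin, encoded by Slc26a5, is the motor protein of the same cells, and Myo7a is a myosin of all hair cells. Atoh1 is the transcription factor that starts the hair cell fate, and Ikzf2 (Helios) is a factor of maturing OHCs.

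All 27 cells came from Fgfr3-Atoh1-Ikzf2-DTR mice (C57BL/6) and were collected at P60. In these mice the Cre of Fgfr3-iCreER, active in SCs, turned on Atoh1, Ikzf2 and Tdtomato after tamoxifen, and a diphtheria toxin receptor placed in Slc26a5 let toxin kill the OHCs of the animal. The Cre of Fgfr3-iCreER works mainly in pillar and Deiters' cells, and induced cells were known by Tdtomato. The reference cells were 17 WT_P30 OHCs and 16 WT_P60 SCs, wild type by their labels and marked by Cre reporters for picking, and 15 SCs failing to become HCs had the genotype and age of the induced cells. Cells were picked by hand and sequenced singly. The study sorted the induced cells by Myo7a and Prestin, so neither gene can be read between OHC-like cells and nascent HCs. Myo7a was found in each of the 27 cells, from 49.2 to 3013 CPM. Slc26a5 was found in all 11 OHC-like cells, and 3 nascent HCs also held it, at 7.51, 8.46 and 16.4 CPM, the last just above the lowest OHC-like cell at 16.0 CPM. Those 3 nascent HCs all had Ocm. Reads of Atoh1 and Ikzf2 can come from the added constructs as well as from the genes.

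The total count on genes lay between 6382171 and 22934062 in the 27 cells. Each sample is 1 cell and no label ties a cell to an animal, so the cells are not replicates of a condition. No p-value is therefore given. Differences stand beside SD over cells, ranges or values within each group where these are printed, and values within library runs are printed for some genes only. Libraries were grouped in the order of their numbers into series, here called library runs. The numbers alone do not set every border, since library 48 (OHC-like cell 1) is in run A and library 49 (OHC-like cell 2) in run B. These runs are therefore not a batch that the labels name. Runs A (2 cells) and C (1 cell) held cells without Ocm only, and cells with and without Ocm stood at 8 and 3 in run B, 3 and 4 in run D, and 2 and 4 in run E. OHC-like cell 4 stood apart, with 3348 genes detected where the other 26 cells had 6856 to 9653. Mitochondrially encoded genes held 23.8% of its counts and its 10 highest genes 36.0%, where the other cells reached at most 8.49% and 26.0%.

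Ocm was found at 1 CPM or more in 7 of 11 OHC-like cells, a share of 63.6% (exact Clopper-Pearson 95% interval 30.8% to 89.1%, counting error only). It was found in 6 of 16 nascent HCs, or 37.5% (15.2% to 64.6%). The intervals overlap widely. The 7 OHC-like cells held 218, 261, 372, 459, 1159, 4140 and 5549 CPM. The 6 nascent HCs held 1.27, 14.2, 29.2, 30.7, 35.7 and 6576 CPM, so 5 of them lay below every OHC-like cell with Ocm and 1 lay above all of them.

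Just inside the limit stood nascent HC 4 at 1.27 CPM and just outside it OHC-like cell 7 at 0.859 CPM, and both values came from 14 reads. Below these, the next cell was nascent HC 8 at 0.354 CPM with 4 reads. No read of Ocm was counted in OHC-like cells 1 and 10 and nascent HCs 3 and 14. A count of 0 allows up to 3 reads, which is 0.131 to 0.470 CPM at the totals of these 27 cells. Nascent HC 4 was numbered between libraries with 11640 and 66343 reads of Ocm, and the part of this in its 14 reads was not tested. OHC-like cell 4, numbered between libraries with 66343 and 53197 reads, had 1 read.

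All 17 WT_P30 OHCs held Ocm, from 11585 to 47771 CPM with a median of 30071 CPM, so the highest induced cell lay below the lowest of them. None of the 16 WT_P60 SCs reached 1 CPM, and the highest stood at 0.151 CPM from 1 read. Among the SCs failing to become HCs 1 of 15 held it, at 10.7 CPM. The plot of Ocm by cell shows these levels.

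**Figure D1:**
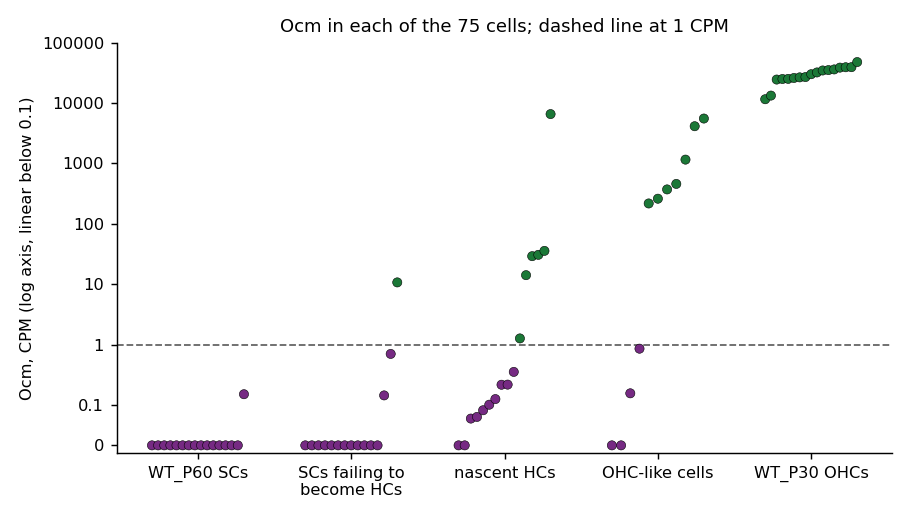
Ocm in CPM (log axis, linear below 0.1) in each of the 75 cells by group, with the dashed line at 1 CPM and cells at or above it in green. The 13 induced cells with Ocm spread from 1.27 to 6576 CPM, all below the WT_P30 OHCs, which begin at 11585 CPM.

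Across 10244 genes with a mean log2(CPM + 1) of at least 1 over the 27 cells, 537 genes were higher with Ocm by 2 or more on the log2(CPM + 1) scale, 5.24% of those compared, and 162 were lower by 2 or more, 1.58%. The median difference of all genes was 0.33, so that most genes were somewhat higher on the side with Ocm. With DESeq2's size factors in place of totals that median was 0.13 and the counts were 417 higher and 223 lower, and without OHC-like cell 4 they were 463 and 218. No gene split the cells fully: for none did the lowest cell with Ocm exceed the highest without, or the reverse.

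Gpx2, Lhfpl5 and Calb2 had the largest positive differences. Gpx2 encodes a glutathione peroxidase that removes peroxides. It lay at 2278 CPM (lowest), 6830 CPM (median) and 17201 CPM (highest) in the 13 cells with Ocm, and at 0, 642 and 22369 CPM in the 14 without. The difference of mean log2(CPM + 1) was 6.19 (SD over cells 0.88 with and 5.75 without), 4.12 inside the OHC-like cells and 7.14 inside the nascent HCs. It was 4.96, 0.75 and 8.11 in runs B, D and E. Inside the OHC-like cells the difference rests largely on OHC-like cell 1, at 0 CPM. The other OHC-like cells without Ocm held 1621, 1929 and 4388 CPM, against 2278 to 12822 CPM with Ocm. The cells with Ocm were all high, whereas those without ran from no read to the highest level of all 27.

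Lhfpl5 encodes a subunit of the mechanotransduction channel complex at the tips of stereocilia. Its levels were 202, 2189 and 5242 CPM (lowest, median and highest) with Ocm and 0, 190 and 1873 CPM without. The difference was 5.74 (SD 1.14 and 5.01), and the cell with Ocm was the higher in 93.4% of the pairs of 1 cell with and 1 cell without. Inside the OHC-like cells the difference was 3.68, with OHC-like cell 1 at 0 CPM and the others without Ocm at 402, 1319 and 1829 CPM. Calb2 encodes calretinin, an EF-hand protein of hair cells, and lay at 1000, 2558 and 7053 CPM with Ocm and at 0, 289 and 5889 CPM without. Its difference was 5.21 over the 27 cells but 1.09 inside the OHC-like cells against 6.95 inside the nascent HCs.

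The sequences before the starts of Ocm and of the first 2 of these genes are shown so that the E-box letters that Atoh1 is known to bind can be seen. They are from RefSeq (GRCm38.p6), 5′ to 3′ on the strand of the gene, with every CAGCTG (its own reverse strand) in capitals, as well as any CAGATG or its reverse strand, written CATCTG. RefSeq places the start of Ocm 23939 bases before the GENCODE M21 gene (chromosome 5, 144019804 to 144026670, minus strand), and no value here shows which start these cells used. Lhfpl5 is cut to the 172 bases that lie before both starts.
Ocm, chr5:144050610-144050859, minus strand: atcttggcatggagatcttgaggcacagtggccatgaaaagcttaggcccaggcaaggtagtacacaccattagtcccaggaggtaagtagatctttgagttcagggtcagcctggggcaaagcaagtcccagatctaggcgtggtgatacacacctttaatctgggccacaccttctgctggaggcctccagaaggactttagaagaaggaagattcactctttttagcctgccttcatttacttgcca
Gpx2, chr12:76795555-76795804, minus strand: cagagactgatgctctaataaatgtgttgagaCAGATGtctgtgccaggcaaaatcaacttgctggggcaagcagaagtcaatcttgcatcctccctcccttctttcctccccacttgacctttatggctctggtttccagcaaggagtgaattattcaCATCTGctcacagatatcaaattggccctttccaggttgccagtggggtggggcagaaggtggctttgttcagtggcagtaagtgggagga
Lhfpl5, chr17:28575469-28575640, plus strand: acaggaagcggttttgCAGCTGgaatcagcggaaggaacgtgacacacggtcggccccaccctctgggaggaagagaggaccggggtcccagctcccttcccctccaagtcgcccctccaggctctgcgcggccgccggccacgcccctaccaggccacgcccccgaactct
The Gpx2 window held 2 of these motifs, the Lhfpl5 window 1 and the Ocm window 0. Of 32851 promoters in the table, 25.5% held at least 1 in a window of 250 bases and 18.2% in the first 172. A match is a description of letters and not of binding.

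The other 9 genes of the 12 with the largest positive differences had differences from 4.35 to 4.78. Loxhd1 is a stereocilia protein needed for hearing, Actn3 is an actin-crosslinking alpha-actinin, and Scg5 is a chaperone of the secretory pathway. Lrrc30 was found in 12 of 13 cells with Ocm and 3 of 14 without, at a median of 87.6 CPM against 0. In runs B, D and E it differed by 6.29, 5.23 and 1.00. Pik3ap1, a phosphoinositide 3-kinase adaptor, was found in 11 of 13 cells with and in 1 of 14 without. Its difference was 5.65, 5.29 and -0.72 in these runs, so it was reversed in run E. Tmem255b shares exon sequence with Gas6 on the opposite strand and Tnfaip2 with Gm40578, and the strand setting of the counting is not stated, so their reads may be mixed. Nrsn1, a vesicle protein of neurons, was found in all 13 cells with Ocm (137 to 1225 CPM) and in 7 of 14 without.

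Of the 12 genes with the largest negative differences, some were also lower in WT_P30 OHCs than in WT_P60 SCs and some were not. The mean log2(CPM + 1) of WT_P30 OHCs minus that of WT_P60 SCs was -11.62 for Sparc, -9.78 for Kcnj16, -8.41 for S100b and -6.76 for Marcksl1, but 3.64 for Dnase1 and -0.36 for Pqlc3. Sparc, a matrix protein secreted by many non-sensory cells, lay at 0, 0 and 80.4 CPM (lowest, median and highest) with Ocm and at 0, 82.6 and 17261 CPM without, a difference of -4.68 (SD 1.76 and 4.83). S100b, an EF-hand protein of glia and cochlear SCs, was found in 2 of 13 cells with Ocm and 9 of 14 without, with a difference of -4.13. Slc1a3, a glutamate-aspartate transporter known from glia and SCs, was found in 1 of 13 and 6 of 14 cells, with a difference of -3.64, but it had no read in any wild-type cell here. Kcnj16, an inward rectifier potassium channel, was found in 0 of 13 cells with Ocm, the highest at 0.194 CPM, and in 8 of 14 without.

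The remaining genes of the 12 most negative were Dnase1, Pqlc3, Marcksl1, Bmp6, Ebf2, Prkch, Acot1 and Plekhg1, with differences from -5.12 to -3.68. Dnase1, a secreted endonuclease, opened the list, with a median of 0.127 CPM with Ocm against 356 CPM without, but its exons overlap those of Trap1 on the other strand. Exons of Bmp6 (with Txndc5) and Ebf2 (with Gm10860) overlap in the same way. In runs B, D and E, Dnase1 differed by -4.99, -0.66 and -3.89. Ebf2 differed there by -2.90, -0.07 and -8.17, and Acot1 by -3.47, -0.05 and -5.51. Marcksl1, an actin-regulating kinase substrate, was found in all 14 cells without Ocm (2.19 to 403 CPM) and in 7 of 13 with (up to 104 CPM). Plekhg1, a guanine nucleotide exchange factor, had no read in any of the 13 cells with Ocm and was found in 8 of 14 without, at 30.9 to 162 CPM.

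Plekhg1, Kcnj16 and Pqlc3 were read together cell by cell. Plekhg1 and Kcnj16 were each at 10 CPM or more in 8 cells, the 8 were the same for both, and Pqlc3 (240 to 4612 CPM there) was above 10 CPM in all 8 of them and in 2 others. The 8 cells were OHC-like cell 1 and nascent HCs 3, 7, 9, 11, 14, 15 and 16, spread over all 5 library runs, and each had 0 or 1 read of Ocm. The other 6 cells without Ocm had at most 0.157 CPM of Plekhg1. Since OHC-like cell 1 was the only OHC-like cell of the 8, the differences of Plekhg1 and Kcnj16 inside the OHC-like cells rest on that cell. Those of Pqlc3, Sparc, S100b, Slc1a3, Bmp6 and Acot1 inside the OHC-like cells rest on it too. It held 6065 CPM of Sparc and 164 to 765 CPM of the others. The other OHC-like cells without Ocm held at most 1.25 CPM of any of them. The same sign asked of these genes in that group therefore came from 1 cell. Prkch and Dnase1 were not held to the 8 cells, as Prkch stood at 290.5 CPM in OHC-like cell 4 and Dnase1 at 609 CPM in OHC-like cell 11.

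Cells without Ocm thus did not look alike across the genes of the heat map. Of the 12 genes higher with Ocm, OHC-like cell 10 held 12 at 1 CPM or more with no read of Ocm, nascent HC 10 held 10 and OHC-like cell 4 held 9, while nascent HCs 15 and 16 held 0. Every cell with Ocm held 10 to 12 of them. Of the 12 genes lower with Ocm, the 13 cells with it held 1 to 4. OHC-like cells 4, 7 and 10 and nascent HCs 8, 10 and 13, without Ocm, also held only 2 to 4. The other cells without Ocm, the same as those that shared Plekhg1 and Kcnj16, held 10 to 12. Because these 24 genes were picked for the difference between the sets, their counts per cell describe the split and do not test it.

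**Figure D2:**
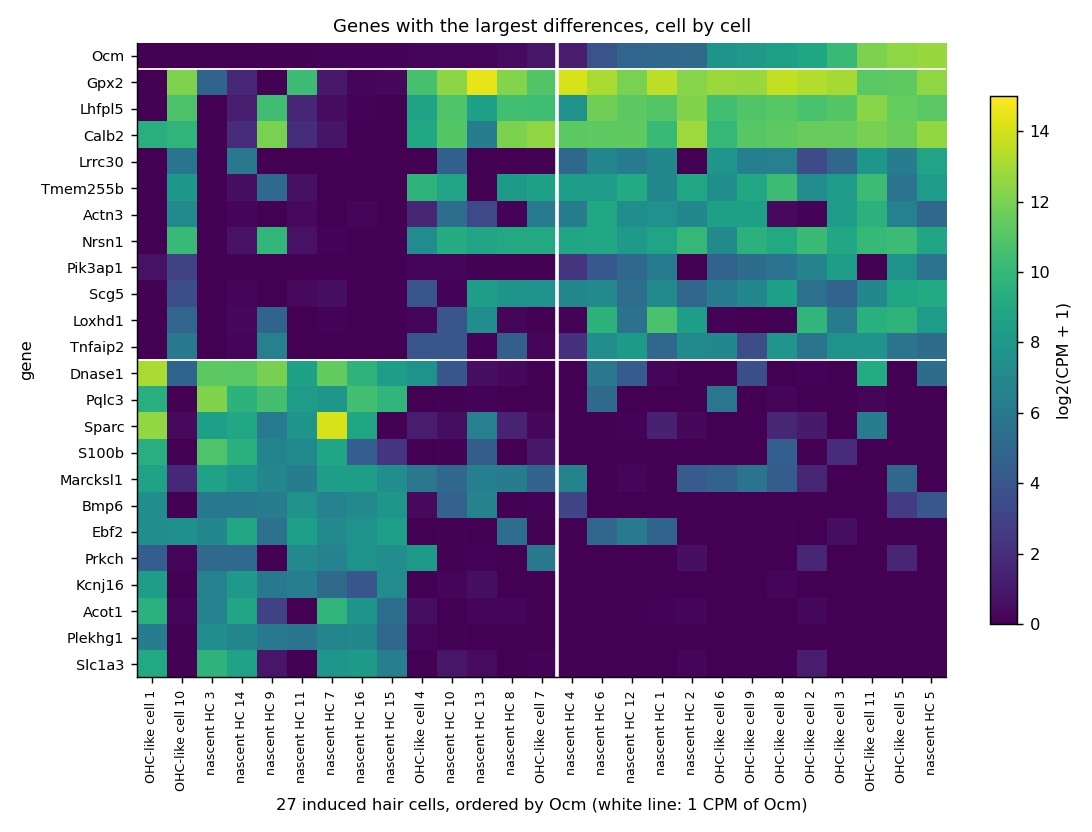
Heat map of log2(CPM + 1) for Ocm and 23 of the 24 genes with the largest differences (rows) in the 27 induced cells ordered by Ocm (columns), with the white vertical line at 1 CPM of Ocm. Left of the line the genes higher with Ocm are dark in some cells and bright in others, such as OHC-like cell 10, which held 12 of 12.

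Among 16 OHC genes on the list fixed for this work, 14 passed the filter on low values, 5 were higher by 2 or more (Atp2b2, Chrna9, Lbh, Lhfpl5 and Slc26a5) and 0 were lower, with a median of 1.22 against 0.33 for all genes. For this list and those below, 5.24% of all genes compared were higher by 2 or more and 1.58% lower. A count of 0 lower therefore says little in lists this short. Chrna9, a subunit of the acetylcholine receptor that receives the efferent nerve, lay at 433, 952 and 1947 CPM (lowest, median and highest) with Ocm and at 0, 177 and 1867 CPM without, a difference of 4.32. Atp2b2, the plasma membrane calcium pump of stereocilia, was found in all 13 cells with Ocm (43.9 to 366 CPM) and in 6 of 14 without. Lbh, a transcriptional cofactor of OHCs, was found in 10 of 13 and 4 of 14, with a difference of 2.82, and of 2.83 and 2.91 inside OHC-like and nascent cells.

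Slc26a5 itself differed by 2.52 over the 27 cells, but this number mixes the split with the study's sort on Prestin. Inside the OHC-like cells, where all 11 held it, the 7 with Ocm had 16.0 to 185 CPM (median 58.6) and the 4 without had 19.6, 25.6, 30.7 and 73.5 CPM, a difference of 0.80 with overlapping ranges. Inside the nascent HCs the cells that held it at 1 CPM or more were the 3 named above, all with Ocm. Tmc1, the pore-forming mechanotransduction channel, was found in all 17 WT_P30 OHCs and in 2 induced cells, both with Ocm.

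Transcription factors and splicing regulators of hair cells formed a list of 20 genes, of which 14 passed the filter, 5 were higher by 2 or more and 0 lower (median 0.97). Lhx3, a LIM homeobox factor, lay at 0.113, 233 and 2134 CPM with Ocm and at 0, 12.3 and 408 CPM without, a difference of 4.00. Rbm24, an RNA-binding protein of hair cells, was found in 12 of 13 cells with Ocm and 3 of 14 without, with differences of 4.25 and 3.61 inside OHC-like and nascent cells. Insm1, a factor that newborn OHCs express for a short time, was found in all 13 cells with Ocm (32.1 to 304 CPM) and in 8 of 14 without. Gfi1, a repressor that hair cells need to survive, differed by 2.90, and Srrm4, a splicing factor, by 2.44. The drivers themselves overlapped: Atoh1 ranged from 1786 to 10260 CPM with Ocm and from 769 to 10412 CPM without (difference 0.46), and Ikzf2 from 109 to 492 CPM and from 44.8 to 831 CPM (difference -0.34).

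Genes of mechanotransduction and the tip link numbered 17, of which 11 passed the filter, 4 were higher by 2 or more (Lhfpl5, Loxhd1 and Ush1c among them) and 0 lower (median 1.35). Inside the OHC-like cells the median of this list was 0.59, under that of all genes there (0.65), and inside the nascent HCs it was 0.96 against 0.20. Loxhd1 differed by -0.95 in run D. Ush1c encodes harmonin, the scaffold at the upper tip-link end, and was found in all 13 cells with Ocm (51.8 to 399.9 CPM) and in 9 of 14 without (up to 469 CPM). Of 29 genes of the stereocilia bundle and cuticular plate, 20 passed, and 4 were higher (Eps8l2, Espnl, Gipc3 and Myo3a) and 0 lower (median 0.65). The median of that list was 1.05 inside the OHC-like cells and 0.55 inside the nascent HCs, beside 0.65 and 0.20 for all genes. Of 18 genes of the ribbon synapse and vesicle release, 13 passed, and Snap25, a core protein of vesicle fusion (difference 4.09), and Cacnb2, a calcium channel subunit (2.34), were higher. The synapse list differed between the groups, with a median of 0.04 inside the OHC-like cells and 1.63 inside the nascent HCs.

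Ocm belongs to the EF-hand calcium-binding proteins, and 17 of the 20 others on that list passed the filter, of which 5 were higher by 2 or more (Calb1, Calb2, Cib3, Pef1 and Pvalb) and 1 was lower (S100b), with a median of 0.87. Calb1, calbindin, lay at 0, 134 and 4161 CPM with Ocm and at 0, 0.138 and 2557 CPM without, a difference of 4.04. Pvalb, alpha-parvalbumin and the closest relative of Ocm on the list, was found in 10 of 13 and 7 of 14 cells. Its difference was 3.37 over all cells, 6.77 inside the nascent HCs and -1.48 inside the OHC-like cells, where 3 cells with Ocm at 218, 4140 and 5549 CPM held 0.226, 0 and 0.104 CPM of Pvalb. The 2 parvalbumins therefore did not go together in each cell. Of 21 calcium pumps, exchangers and store channels, 13 passed, and Atp2b2 and Itpr3, an inositol trisphosphate receptor, were higher (3.87 and 3.03) and 0 lower, with a median of 0.12, or -0.02 with DESeq2's size factors.

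SC genes numbered 36, and 26 passed the filter, of which 4 were lower by 2 or more (Bace2, Lfng, Slc1a3 and Sox9) and 1 was higher (Fgfbp3), with a median of -0.24 against 0.33 for all genes. That median was -0.45 inside the nascent HCs and 0.44 inside the OHC-like cells, where the median of all genes was 0.65. Sox9, an SC transcription factor, was found in 6 of 13 cells with Ocm (highest 298 CPM) and 9 of 14 without (highest 1382 CPM), a difference of -2.76 that was 0.31 inside the OHC-like cells. Sox2, which SCs keep in adult life, differed by -0.56 and was found in 6 of 13 and 8 of 14 cells. Fgfr3, whose promoter drives the Cre of these mice, was found in all 27 cells and differed by 0.40.

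In the Notch pathway, by which neighbouring cells settle hair cell and SC fates, 20 of 21 genes passed, with 1 higher, 1 lower and a median of 0.19, which was -0.07 with DESeq2's size factors and -0.01 without OHC-like cell 4. Dll4, a Notch ligand, was found in 10 of 13 cells with Ocm (up to 293 CPM) and in 0 of 14 without, where the highest stood at 0.532 CPM. Over the 10244 genes, Dll4 and Pgbd5 alone were found in 10 or more cells with Ocm and in none without. The difference of Dll4 was 2.84 inside the OHC-like cells and 4.63 inside the nascent HCs, and it was positive in runs B, D and E (4.04, 4.18 and 0.76). Lfng, a glycosyltransferase that tunes Notch, was found in all 14 cells without Ocm (1.86 to 184 CPM) and in 7 of 13 with, a difference of -2.60.

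Genes of survival and death (16, of which 12 passed) included Xiap and Aifm1 as higher by 2 or more, with differences of 2.75 and 2.26 and a list median of -0.14. Of 17 stress and immediate early genes 16 passed and none was past 2, as was the case for 11 of 13 mitochondrially encoded messenger RNAs that passed. Of 12 genes of the OHC lateral wall 8 passed and Slc26a5 alone was past 2, and of 12 genes of the efferent synapse and basolateral potassium channels 5 passed and Chrna9 alone was past 2. The plot of listed genes shows each member.

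**Figure D3:**
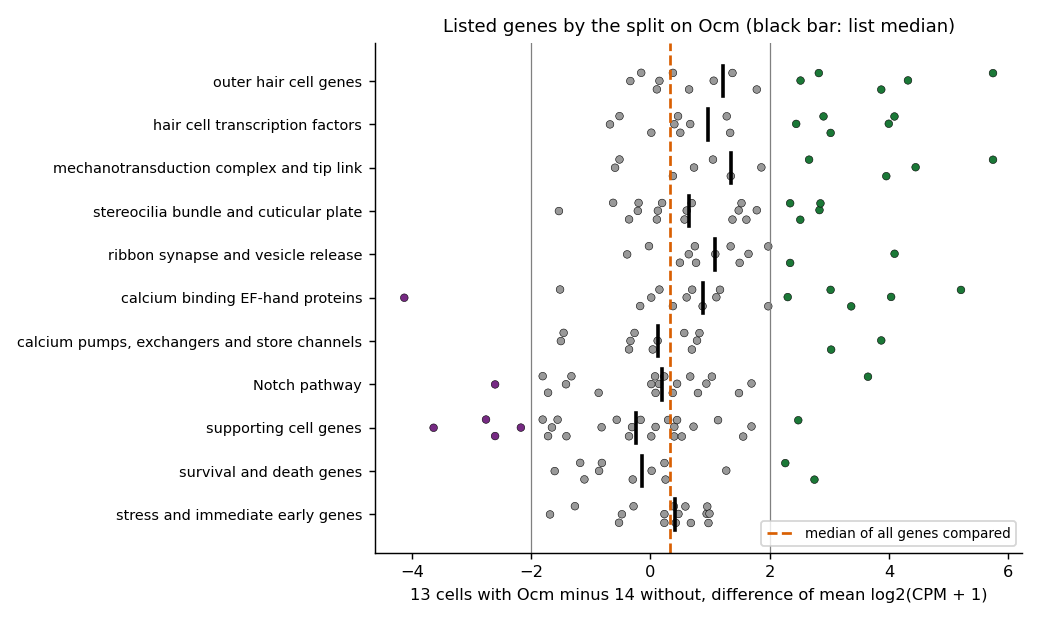
Difference of mean log2(CPM + 1), 13 cells with Ocm minus 14 without, for each member of the lists at left that passed the filter, with black bars at list medians, grey lines at 2 and -2 and the dashed line at the median of all genes (0.33). The medians of OHC genes (1.22) and of mechanotransduction genes (1.35, but 0.59 inside the OHC-like cells) stand to the right of the dashed line, and that of SC genes (-0.24) to its left.

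Some list members that failed the filter were highest in the same pair of cells, a pattern noticed after the values were seen. Of the 92 list members under the filter, 57 reached 10 CPM in at least 1 of the 27 cells, and 11 of these 57 were highest in nascent HC 2 and OHC-like cell 11. The same share over all genes under the filter was not counted. Whether the pattern is particular to the listed genes was therefore not tested. Both cells had Ocm, at 35.7 and 4140 CPM. The 11 genes were Pou4f3, Grxcr1, Grxcr2, Ptprq, Pjvk, Myo15, Xirp2, Chrna10, Cplx1, Nefm and Nhlh1. Of these, 6 stood under 1 CPM in each of the other 25 cells, whereas Xirp2 reached 85.3 CPM, Nhlh1 47.1 CPM, Myo15 7.61 CPM and Cplx1 6.23 CPM outside the pair.

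Pou4f3, the transcription factor that hair cells need to mature and survive, stood at 584 CPM in nascent HC 2 and 736 CPM in OHC-like cell 11, and 1 of the other 25 cells just reached 1 CPM. It was found in all 17 WT_P30 OHCs (141 to 1296 CPM) and in none of the SCs failing to become HCs or WT_P60 SCs. Grxcr2, a protein of the stereocilia base, stood at 365 and 298 CPM in the pair and at most 0.307 CPM in the others, and Ptprq, a phosphatase of the bundle, at 303 and 162 CPM and at most 0.394 CPM. Pjvk, pejvakin, stood at 231 and 557 CPM, and Chrna10, the partner of Chrna9 in the efferent receptor, at 132 and 256 CPM with no read in the other 25. Both cells came from run E, with library numbers 92 and 96. Their levels of other transcripts were not parallel, since Tmc1 stood at 0 and 447 CPM, and Slc17a8 at 45.9 and 0 CPM.

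Each cell was also placed on an axis that gives 0 to the average WT_P60 SC and 1 to the average WT_P30 OHC, computed with Ocm and Slc26a5 left out. Cells with Ocm stood at 0.373 ± 0.056 (SD, n = 13 cells) and cells without at 0.341 ± 0.165 (n = 14), a difference of 0.032 that is smaller than either SD. The difference was 0.084 inside the nascent HCs and -0.080 inside the OHC-like cells, where OHC-like cell 4 stood at 0.799. That cell had the fewest genes detected, and the part of this in its position was not tested. Without that cell the difference was 0.038 inside the OHC-like cells, with the cell with Ocm higher in 42.9% of pairs, and 0.068 over the other 26 cells. In runs B, D and E alone, with that cell kept, it was -0.003. Inside the OHC-like cells the direction of the difference of means thus depended on OHC-like cell 4. Over all induced cells it was positive with and without that cell, but not in runs B, D and E alone.

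Cells with Ocm held 8476 ± 505 genes at 1 CPM or more, from 7808 to 9653, and cells without held 7528 ± 1376, from 3348 to 8975. The difference of 947 genes was 687 inside the nascent HCs and 1531 inside the OHC-like cells, and 626 over all cells without OHC-like cell 4. That cell carried much of it inside the OHC-like cells, where the difference without it was 321 and the cell with Ocm had more genes in 42.9% of pairs. In runs B, D and E it was 2035, 858 and 429, and in run B without that cell 495. The number of genes detected thus moved with the split, and its part in the gene differences was not tested. With that number as a covariate, 362 genes were higher by 2 or more and 384 lower. A cell with Ocm had the larger total in 54.9% of all pairs, in 71.4% inside the OHC-like cells, 50.0% inside the nascent HCs and 75.0% in run D. With every cell thinned to the smallest total 540 genes were higher and 159 lower.

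**Figure D4:**
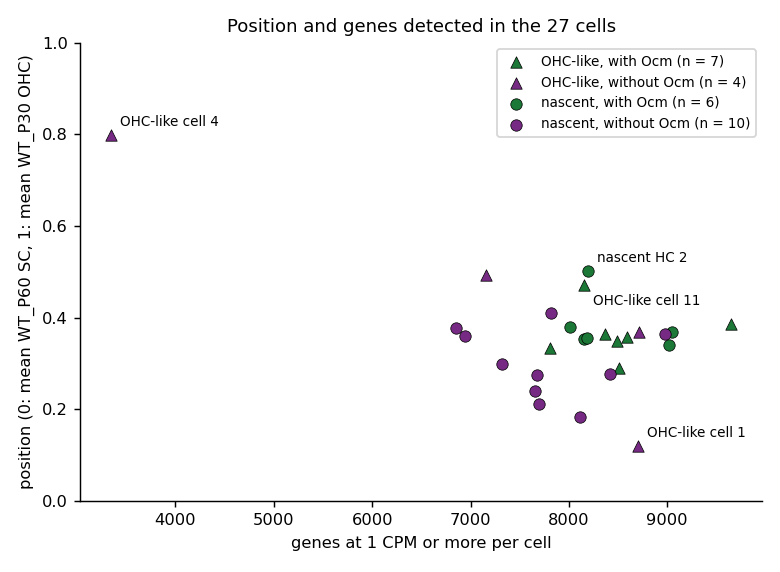
Position on the axis with the average WT_P60 SC at 0 and the average WT_P30 OHC at 1, against genes detected at 1 CPM or more, in the 27 induced cells (triangles OHC-like, circles nascent, green with Ocm, purple without). The cells with Ocm lie between 0.290 and 0.501, and OHC-like cell 4, without Ocm, stands alone at 3348 genes and 0.799. The part of its few detected genes in that position was not tested.

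The wild-type cells were not part of the split, and they give an outside reading of its genes. Of the 10244 genes, 677 (6.61%) were higher in WT_P30 OHCs than in WT_P60 SCs by 2 or more and 2398 (23.4%) were lower. Among the 537 genes higher with Ocm, 110 (20.5%) were of the OHC kind, 16.2% of all such genes, and 79 (14.7%) were of the SC kind. Among the 162 genes lower with Ocm, 64 (39.5%) were of the SC kind, 2.67% of those genes, and 4 (2.47%) of the OHC kind. The median difference was 0.82 for the 677 OHC genes and 0.19 for the 2398 SC genes, beside 0.33 for all. Most genes past 2 were of neither kind, as were most of all genes compared. The mean log2(CPM + 1) of WT_P30 OHCs minus that of WT_P60 SCs was -1.49 for Gpx2 and -3.77 for Pik3ap1, both higher with Ocm, and 10.41 for Lhfpl5. The wild-type groups each came from a library run of their own, so run and group cannot be told apart there. Of the 10244 genes, 247 had no read in any of the 33 wild-type cells, among them 35 of the genes higher with Ocm and 13 of those lower.

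The groups share no cell, so genes chosen in the nascent HCs can be read in the OHC-like cells. In the 16 nascent HCs, 1275 genes (12.4%) were past 2 in either direction, 817 higher and 458 lower with Ocm. In the OHC-like cells 65.5% of the 1275 had the same sign, against 55.0% of all genes compared. Of the 817 higher genes 27.7% were also higher by 2 or more there, where 17.9% of all genes were, and of the 458 lower genes 10.0% were also lower, where 3.60% of all genes were. This agreement rested on 1 cell. Without OHC-like cell 1, which carries the genes of the 8 cells above, 55.1% of the 1275 had the same sign and 53.1% of all genes did. Runs B, D and E alone leave out that same cell, with nascent HCs 3 and 9, so they give no separate reading. The shares there were 54.5% and 52.6%.

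**Figure D5:**
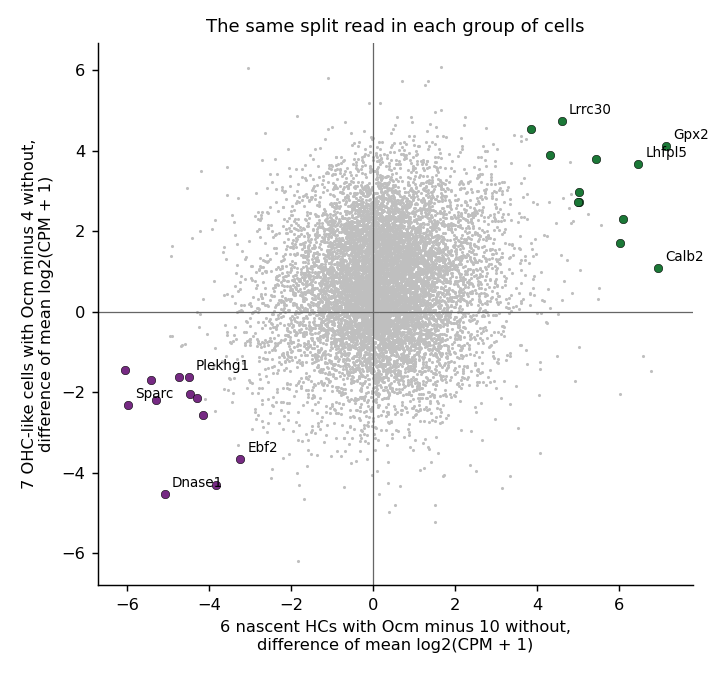
Difference of mean log2(CPM + 1) between cells with and without Ocm for each of 10244 genes, in nascent HCs (x axis, 6 with and 10 without) and in OHC-like cells (y axis, 7 with and 4 without), with the 12 genes of largest positive difference in green and of largest negative difference in purple. The coloured genes sit in the upper right and lower left because the same sign in both groups was asked of them. Of the 1275 genes past 2 in nascent HCs, 65.5% have the same sign in OHC-like cells, against 55.0% of all genes. Without OHC-like cell 1 these shares are 55.1% and 53.1%.

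Within the 13 cells with Ocm, levels of other hair cell genes were set beside its own. Spearman's correlation with Ocm over these 13 cells was 0.24 for Lhfpl5, 0.44 for Slc26a5, 0.57 for Calb2, -0.58 for Pvalb and -0.71 for Snap25. The 5 genes with the largest positive correlation of 9495 ranked were Cnep1r1 (0.87), Pop7, Megf6, Bud31 and Lbr, and those with the largest negative correlation were Ints13 (-0.89), Tamm41, Fbxo16, Krt8 and Top3a. Krt8, a keratin of epithelial cells, was found in all 27 cells and ran from 195 to 2839 CPM in those with Ocm. These values describe 13 cells from 3 library runs, and the extremes of so many ranked genes are large by selection.

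Markers of other cells were summed in each set. No member of the lists for inner hair cells, blood, macrophages, endothelium and fibroblasts passed the filter. C1qa, C1qb, C1qc and Cx3cr1 of macrophages had no read in any of the 27 cells, and the summed macrophage list reached 0.169 CPM with Ocm and 32.3 CPM without. OHC-like cell 2, with Ocm, held 2565 CPM of haemoglobin transcripts, and the next cell 14.5 CPM. Summed inner hair cell markers reached 78.2 CPM with Ocm, in nascent HC 2, and 4.75 CPM without, endothelial markers 22.0 and 26.9 CPM, and fibroblast markers 81.8 and 54.9 CPM. Summed neuron and glia markers reached 213 CPM with Ocm and 475 CPM without. Among neuron and glia markers 3 of 8 passed, and Mbp, a myelin protein, was higher with Ocm by 2.40. Of the neurofilament genes, Nefl reached 0.0647 CPM with Ocm and 0 without, Nefm 44.1 and 0.102 CPM, and Nefh 32.2 and 173 CPM. The part of these cells in the gene differences was not tested.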

How the data were processed

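Single cells were picked by hand and amplified with a Smart-Seq HT kit, which carries no molecular identifiers, so the values count reads and intervals and limits cover counting error only. The deposited file holds whole-number counts per gene for all 75 cells, made by the authors, whose processing notes name FastQC 0.11.9, Trimmomatic 0.39, HISAT2 2.1.0, StringTie 1.3.5 and HTSeq 0.10.0 with mm10. The annotation release and strand setting are not given in the sources used here, so genes that overlap on opposite strands are uncertain. The WPRE row, a vector element and no gene, was left out and held 0.016% of counts in the 27 cells. Columns that matched no sample numbered 0.

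CPM and log2(CPM + 1) were computed here. Of 55291 genes, 10244 with a mean log2(CPM + 1) of at least 1 over the 27 cells were kept, and a difference of 2 or more was counted. A gene was called found in a cell at 1 CPM or more. No test was run between the sets, because cells are not replicates and the labels name no animal. The members, lists and comparisons were chosen with earlier results of these data known. Named genes were list members, the 12 with the largest difference in each direction among those past 2 with the same sign in both groups and in most of the runs B, D and E (predicted gene models left out), and the 5 in each direction with the largest Spearman correlation with Ocm in the 13 cells. Pgbd5 was named after its values were seen. Alternatives were the Ocm limit, scaling with edgeR 4.0.16 (TMM) and DESeq2 1.42.0 (size factors), thinning, pseudocount, filter, adjustment for group, run or genes detected, and left-out cells. Differences were computed with Python 3.11.15, numpy 2.4.6 and pandas 2.3.3. The computation was tried on simulated counts with the same spread set for every gene, at a mean log2(CPM + 1) of at least 3. That trial does not show how often genes found in only some cells pass 2. Coordinates are GENCODE M21 (GRCm38), and promoters are from the RefSeq table. Some genes that met the rule are not reported here.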

Additional observations from a re-analysis of the deposited data

Results flagged for a closer look

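Dixon's criterion was used only to point out single cells, and of 36 groups of cells 7 held a cell far from the rest. Chance marks about 1 in 20. Cells are not replicates, so these marks describe cells and test no condition. The sets were chosen by Ocm and the nascent HCs were sorted by Prestin, so the marks for Ocm and Slc26a5 are not independent of that choice. Nascent HC 5 held 6576 CPM of Ocm where the other 5 nascent HCs with Ocm held 1.27 to 35.7 CPM. OHC-like cell 2 had 9653 genes detected where the other OHC-like cells with Ocm had 7808 to 8593. Nascent HC 2 stood at a position of 0.501 where the other nascent HCs with Ocm stood at 0.341 to 0.380. Nascent HC 9 held 0.0665 CPM of Slc26a5, from 1 read, where the other nascent HCs without Ocm had none. Nascent HC 4 held 8174 CPM of Atoh1 where the others with Ocm held 3042 to 4716 CPM. Nascent HC 13 held 10412 CPM of Atoh1 where the others without Ocm held 1392 to 5546 CPM. Nascent HC 12 had a total count of 22934062 where the others with Ocm had 7443598 to 11814173.

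Outside the induced cells, SC failing to become HC 2 held 10.7 CPM of Ocm, from 60 reads of 5582767, where the other SCs failing to become HCs held 0 to 0.703 CPM. The same cell held 21.7 CPM of Myo7a, 0.896 CPM of Slc26a5, 252 CPM of Calb2 and 0.358 CPM of Lhfpl5, had 4858 genes detected and stood at a position of 0.485.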

How the results depend on the processing

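No paired analysis was possible because the results come from no test and the replicate numbers only name cells. Counts of genes past 2 depended on the pseudocount, with 37 higher and 21 lower at 10 (and 72.9% of nascent genes with the same sign in OHC-like cells) and 1471 higher and 456 lower (61.5%) at 0.1. Splitting at any read of Ocm put 85.2% of cells on the side with it, gave 739 lower genes and turned the difference in genes detected per cell to -251. It gave 532 higher genes, of which 179 were among the 537. With the limit at 100 CPM of Ocm, 220 of the higher genes (41.0%) and 68 of the lower genes (42.0%) recurred. At 10 CPM 414 (77.1%) and 115 (71.0%) did. The filter at a mean of 3 left 58 lower genes, adjustment for genes detected gave 384, and the ratio of mean CPM gave 198 higher and 325 lower. List members lower by 2 or more numbered 5, against 8 with TMM, 9 with DESeq2's size factors and 13 adjusted for genes detected. In OHC-like cells alone 1836 genes were higher, 369 lower and 3 list members lower, and in nascent HCs alone 817, 458 and 15. In runs B, D and E alone, which leave out OHC-like cell 1, the same-sign share was 54.5%. The causes of these shifts were not tested. Leaving out each of the 27 cells in turn gave a share with Ocm of 46.2% to 50.0%, 463 to 642 higher genes, 127 to 218 lower genes, a position difference of 0.0152 to 0.0676, a difference in genes detected of 626 to 1059, a same-sign share of 55.1% to 68.2%, and 29 to 33 list members higher and 4 to 6 lower. The low end of the position range and of the same-sign share came without OHC-like cell 1, and the high end of lower genes without OHC-like cell 4. Over 18 other settings the 24 genes chosen by size of difference kept their direction in 424 of 424 values and stayed past 2 in 407, where the same sign inside each group was asked of them by their choice. Other named genes turned, since in OHC-like cells alone Pvalb stood at -1.48 and Sox9 at 0.31. The difference in position between SCs and OHCs was -0.0137 adjusted for library run.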
